A study of Mus musculus with 10 samples.

Results

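The H3K27me3 peaks of R4000, the most drug-resistant of the mouse lymphoma lines in the series, were compared with those of the parental line. All distinct peaks of both lists were used, which gave 6820 peaks in R4000 and 10778 in the parental line, of 74261 distinct peaks in the 5 H3K27me3 lists of the series. The 2 samples compared are among 10 in all. Both lines are B-cell lymphoma cells on the C57BL/6J background, and both carry the Eμ-Myc transgene and lack Cdkn2a. In the Eμ-Myc model an immunoglobulin heavy-chain enhancer drives Myc in B-lineage cells, and Cdkn2a encodes the tumour suppressors p16Ink4a and p19Arf. R4000 is a sub-clone isolated from the parental line during a dose escalation of mafosfamide, an alkylating agent related to cyclophosphamide, which ran for 34 days. R4000 was taken at 4000 nM and the parental line received 0 nM, and per the study's text all lines were grown without the drug for ChIP-seq. A difference between these lines can therefore not be told apart from a difference between 1 sub-clone and the population from which it came.

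H3K27me3 is a trimethyl mark that Polycomb repressive complex 2 (PRC2) places on the tail of histone H3. It typically covers CpG-rich promoters of silent developmental genes, such as homeobox genes and regulators of other lineages, while CpG-rich promoters of active housekeeping genes usually lack it. Genes for ribosomal proteins belong to the second kind, since every growing cell transcribes them.

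The sequences below are the parts of peaks on which the comparison turns, read from mm9 and written in the direction of the gene, with CG dinucleotides in capitals because PRC2 targets are commonly CpG islands. The first were under an R4000 peak and under no parental peak. They show the ribosomal protein gene Rpl8, the sodium pump gene Atp1b1 and a tandem repeat on chromosome 9.
Rpl8, chr15:76734897-76735196, plus strand, within the gene: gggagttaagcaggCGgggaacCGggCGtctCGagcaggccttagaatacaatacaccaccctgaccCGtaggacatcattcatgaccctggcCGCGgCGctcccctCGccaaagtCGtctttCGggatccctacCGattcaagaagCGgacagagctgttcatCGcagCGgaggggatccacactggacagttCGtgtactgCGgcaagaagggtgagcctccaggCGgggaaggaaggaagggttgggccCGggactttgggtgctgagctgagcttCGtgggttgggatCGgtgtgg
Atp1b1, chr1:166388751-166389050, minus strand, upstream of the TSS: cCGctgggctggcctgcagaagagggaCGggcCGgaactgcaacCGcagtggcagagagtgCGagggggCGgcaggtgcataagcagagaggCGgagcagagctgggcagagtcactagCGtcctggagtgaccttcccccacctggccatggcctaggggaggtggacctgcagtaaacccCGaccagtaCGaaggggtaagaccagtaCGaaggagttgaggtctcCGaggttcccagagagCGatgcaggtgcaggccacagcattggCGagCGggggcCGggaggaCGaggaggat
Gm10717, chr9:3025526-3025825, plus strand, tandem repeat: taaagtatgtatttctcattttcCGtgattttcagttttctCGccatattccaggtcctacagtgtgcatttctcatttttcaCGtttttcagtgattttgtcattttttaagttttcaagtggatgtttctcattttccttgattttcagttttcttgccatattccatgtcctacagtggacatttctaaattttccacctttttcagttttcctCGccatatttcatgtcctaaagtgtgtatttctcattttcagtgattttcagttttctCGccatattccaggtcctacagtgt

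The next were under a parental peak and under no R4000 peak. They show Gata3, which encodes a transcription factor of T cells, and Barhl2 and Neurog1, which encode transcription factors of the nervous system.
Gata3, chr2:9810947-9811246, minus strand, within the gene: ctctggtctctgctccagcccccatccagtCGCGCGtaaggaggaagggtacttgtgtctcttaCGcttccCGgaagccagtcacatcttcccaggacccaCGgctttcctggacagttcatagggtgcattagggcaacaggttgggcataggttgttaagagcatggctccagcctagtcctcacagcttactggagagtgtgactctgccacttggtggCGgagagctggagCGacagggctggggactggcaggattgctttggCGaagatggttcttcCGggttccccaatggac
Barhl2, chr5:106886751-106886860, minus strand, coding exon: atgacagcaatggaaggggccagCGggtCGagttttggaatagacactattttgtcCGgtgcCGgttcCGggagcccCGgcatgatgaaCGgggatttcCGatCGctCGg
Neurog1, chr13:56352651-56352900, minus strand, coding exon: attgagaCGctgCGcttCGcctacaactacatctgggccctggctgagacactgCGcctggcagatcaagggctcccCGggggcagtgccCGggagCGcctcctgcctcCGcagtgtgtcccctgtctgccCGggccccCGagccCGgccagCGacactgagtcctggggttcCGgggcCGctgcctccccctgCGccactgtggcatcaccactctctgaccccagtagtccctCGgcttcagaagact

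Over the windows printed, the observed number of CG relative to that expected from base content was 0.772 in Rpl8 and 0.570 in Atp1b1. It was 0.403 in Gata3, 1.13 in Barhl2 and 0.559 in Neurog1. The repeat on chromosome 9 was AT-rich, with a GC content of 34.7%, and its ratio was 0.581. Ratios thus ran from 0.570 to 0.772 in the printed R4000 stretches and from 0.403 to 1.13 in the parental ones.

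Peaks covered 1.63 Mb in the parental line and 1.07 Mb in R4000, and the median peak width was 100 bp in both. A peak list gives positions and no height, so how strongly a peak was marked was not measured. The depth of the libraries is unknown. Each line has 1 list, so the differences below have no replicate check and no test, and the 95% Wilson intervals given for shares cover counting only. Of the R4000 peaks, 4643 (68.1%, 95% CI 67.0 to 69.2%) had no parental counterpart, and of the parental peaks 8669 (80.4%, 95% CI 79.7 to 81.2%) had none in R4000. The length present in both lists was 404200 bp, which is 37.7% of the R4000 length and 24.8% of the parental length. Most line-only peaks were narrow. Of those, 45.9% in R4000 and 44.1% in the parental line were 50 bp wide, the smallest unit of the lists, while only 29 and 82 reached 500 bp.

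The line-only peaks of both lines differed in where they lay. Among R4000-only peaks, 56.6% (95% CI 55.1 to 58.0%) were within 2 kb of a transcription start site (TSS), against 30.0% (95% CI 29.1 to 31.0%) of parental-only peaks. Peaks with a counterpart in the other line were near a TSS in 62.3% (R4000) and 62.9% (parental). The median GC content was 54.0% in R4000-only peaks and 48.0% in parental-only peaks. R4000-only peaks thus resembled the shared peaks in position and base content more than parental-only peaks did.

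The same difference was visible in a profile over 22380 protein-coding genes aligned at their TSS. The share with a peak was highest 350 bp downstream of the TSS in R4000 (1.81%) and 650 bp downstream in the parental line (1.47%). At 250 bp downstream, R4000 had 1.68 times the parental share, the highest ratio along the profile. At 4650 bp upstream it had 0.365 times the parental share, the lowest ratio. R4000 had more genes covered than the parental line from 550 to 250 bp upstream and from 50 to 650 bp downstream. It had fewer at 150 and 50 bp upstream, from 750 bp downstream to the end of the profile, and from 650 bp upstream outwards.

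**Figure D1:**
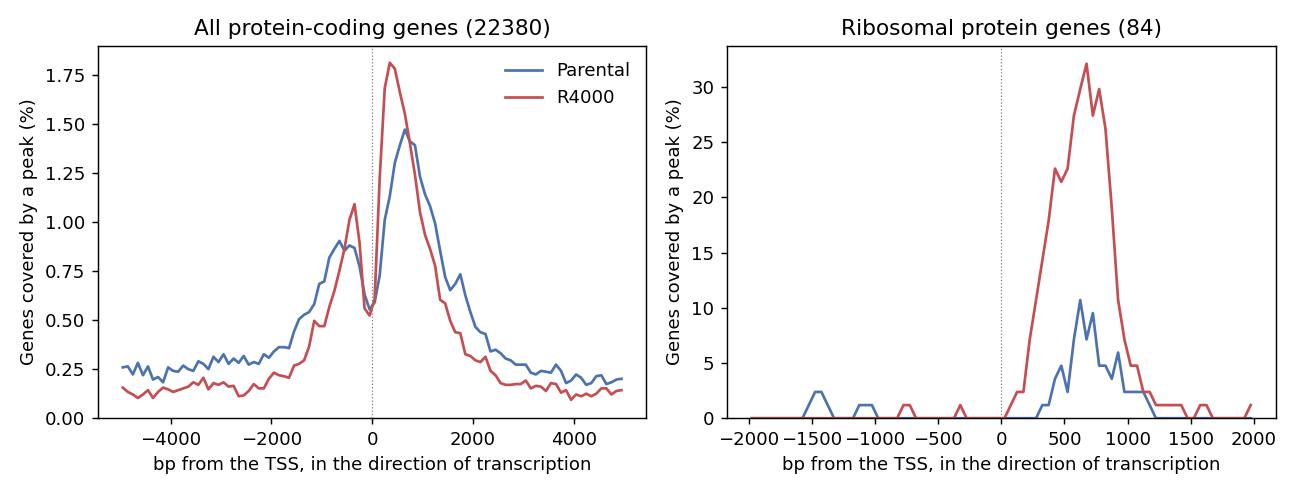
The plot gives the share of genes covered by an H3K27me3 peak (y axis, %) by distance from the TSS in bp (x axis, negative values upstream) for the parental line (blue) and R4000 (red). Over all protein-coding genes (left), R4000 is highest at 350 bp and the parental line at 650 bp, and over the 84 ribosomal protein genes (right) R4000 reaches 32.1% at 675 bp.

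Genes were compared by the length of promoter under peaks. A promoter was counted as covered with at least 150 bp, which is 3 bins of 50 bp, and as covered in 1 line only where the other line had less than 150 bp. In the 5 kb upstream of the TSS, 308 of 37310 genes were covered in R4000 only (0.826%), 524 in the parental line only (1.40%) and 609 in both. In a second window, from 2 kb before to 2 kb after the TSS, 580 genes were covered in R4000 only (1.55%), 505 in the parental line only (1.35%) and 1006 in both. Among protein-coding genes, the R4000-only share was 0.894% (200 genes) in the upstream window and 2.12% (474 genes) around the TSS. The parental-only share was 1.80% (403 genes) upstream and 1.87% (418 genes) around the TSS. The parental line thus had more genes of its own upstream, and R4000 had more around the TSS.

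The order around the TSS held for weakly covered promoters and not for broadly covered ones. With at least 500 bp required, 180 genes were covered in R4000 only and 283 in the parental line only. With no base allowed in the other line (0 bp), 409 genes were covered in R4000 only (1.10%) and 251 in the parental line only (0.673%). Genes covered in 1 line only had a median of 200 bp in R4000 and 250 bp in the parental line. Many of these calls therefore rest on a few bins of 50 bp.

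The position of the covered bases differed as well. In the 474 protein-coding genes covered in R4000 only, 67.8% of the R4000 length within 2 kb was downstream of the TSS (83.6 kb against 39.8 kb upstream). In the 418 covered in the parental line only, 61.0% of the parental length was downstream. In the 758 covered in both lines, this share was 64.8% in R4000 and 61.5% in the parental line. Chromosome 1 had the highest share of protein-coding genes covered in R4000 only around the TSS (5.25%, 65 genes), and chromosome X had 2 such genes.

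Ribosomal protein genes were the group that differed most in number. They encode the proteins of the small (Rps) and large (Rpl) ribosomal subunits. The list was matched by symbol and was known from earlier results of these data, so its counts are a description. Of 84 protein-coding members, 9 were covered in the parental line and 42 in R4000 within 2 kb of the TSS. Covered in R4000 only were 35 (41.7%, 95% CI 31.7 to 52.3%), read against 2.12% of all protein-coding genes, with 2 members covered in the parental line only and 7 in both. The count depended on the length required. With at least 500 bp required, 2 small-subunit and 7 large-subunit genes were covered in R4000 only, and with peaks at least 500 bp wide, 2 and 5. The parental-only counts were 0 and 0 at 500 bp, and 0 and 1 with the wide peaks. The R4000-only members were 17 of 33 small-subunit genes (51.5%) and 18 of 51 large-subunit genes (35.3%). The median length covered was 0 bp in the parental line compared with 125 bp in R4000 over all 84 members, and 0 bp in both lines over all protein-coding genes. R4000 had more covered bases at 56 members, fewer at 6 and the remaining members had equal values.

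Long stretches were covered at Rpl8, where peaks covered 0 bp in the parental line compared with 750 bp in R4000, and at Rpl9, with 50 and 700 bp. Rpl19 had 0 and 500 bp and Rps12 had 100 and 450 bp. All 4 were also covered in R100, R500 and R1000, the lines taken at lower doses. At Rpl8 the covered length was 1000, 500 and 300 bp in R100, R500 and R1000, so R4000 had more than R1000 and less than R100. Rps12 had 750, 800 and 350 bp in the same order, so R4000 was again above R1000 and below R100. The parental line was thus the lowest of the 5 lists at these genes.

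Across the 35 R4000-only members, 24 had 0 bp in the parental line. R100 and R500 each covered 30 of them and R1000 covered 20. Rplp0, which encodes a protein of the ribosomal stalk, had 250 bp in R4000 and 0 bp in the other 4 lists. Rpl21 had 150 bp in R4000, the minimum for a call, and 0 bp elsewhere. These 2 were the only members with a peak in R4000 and with 0 bp in R100, R500 and R1000.

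Among the exceptions was Rpl26, with 300 bp in the parental line compared with 0 bp in R4000. The members covered in both lines had more bases in R4000 at 5 of 7. Rpl3 had 250 bp in the parental line compared with 600 bp in R4000, Rpl27a had 150 and 650 bp, Rpl32 had 150 and 600 bp, Rpl10a had 350 and 600 bp and Rps3 had 150 and 350 bp. Rpl31 had 300 bp in each line, and Rpl12 had 600 and 500 bp. The direction was therefore shared by most, and not all, of the covered members.

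The coverage of ribosomal protein genes lay within the genes rather than before them. In the 5 kb upstream, 0 members were covered in R4000 only and 3 (Rpl31, Rpl26 and Rpl23a) in the parental line only. Of 10000 bp of R4000 peaks at the 35 R4000-only members, 99.5% fell within the member's own gene and 43.1% in exons. The highest number of members under an R4000 peak was 27 at 675 bp downstream of the TSS, where 6 had a parental peak. Ribosomal protein genes have many processed pseudogenes, and reads from near-identical exons can be split between copies. Of 107 annotated ribosomal protein pseudogenes, 0 were covered in R4000 only and 1 in the parental line only, in each window. Over all genes, the R4000-only share was 1.55% around the TSS and 0.826% upstream, and the parental-only share 1.35% and 1.40%. With such low shares, few calls among the pseudogenes do not show how reads were placed, which was not tested. How the study's mapping placed reads that match several copies was not given in the sources used here.

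Other genes of the protein and RNA machinery were called in smaller numbers. Of 49 splicing factor genes of the hnRNP, snRNP and SR families, 5 (10.2%) were covered in R4000 only around the TSS and 0 in the parental line only. Over all protein-coding genes these shares were 2.12% and 1.87%. With 0 bp required in the other line, the splicing factor counts were 2 and 0. Hnrnpa2b1, which encodes an hnRNP that binds pre-mRNA, had 50 bp in the parental line compared with 350 bp in R4000. Hnrnpab had 0 and 250 bp, and Hnrnpa1 had 100 and 200 bp. Sf3a2 and Sf3b3, subunits of the U2 snRNP complex, each had 150 bp in R4000, against 0 and 100 bp in the parental line. Translation factors had few calls at 150 bp but more bases in R4000. Of 67 translation factor genes, 4 (5.97%) were covered in R4000 only and 3 (4.48%) in the parental line only around the TSS. These stand beside 2.12% and 1.87% of all protein-coding genes. R4000 had more covered bases at 16 of them and fewer at 4, and the summed length was 1200 bp in the parental list and 3500 bp in R4000. With at least 50 bp required, 12 more members were covered in R4000 only than in the parental line only. Eef2, the elongation factor of translocation, had 0 bp in the parental line compared with 250 bp in R4000, and Eif4e3 had 0 and 350 bp. In the other direction, Eif5a had 150 and 0 bp. Of 77 mitochondrial ribosomal protein genes, 2 were covered in R4000 only (2.60%), a share close to the 2.12% of all protein-coding genes.

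**Figure D2:**
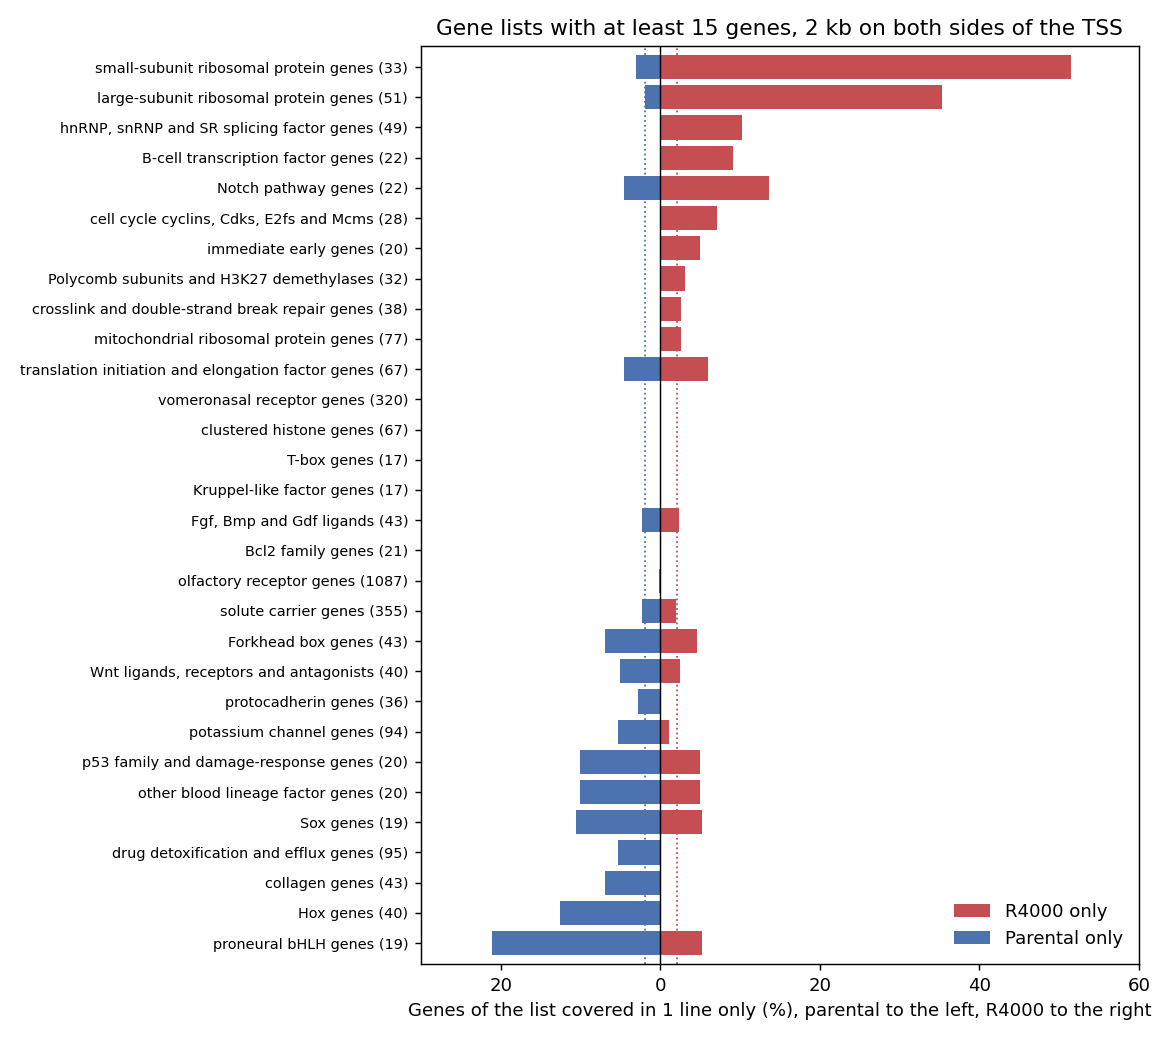
The bars give the share of each gene list (number of genes in brackets) covered within 2 kb of the TSS in R4000 only (red, to the right) or in the parental line only (blue, to the left), in %, and the dotted lines give all protein-coding genes (2.12% and 1.87%). Small-subunit (51.5%) and large-subunit (35.3%) ribosomal protein genes stand at the R4000 end, and Hox and proneural bHLH genes at the parental end.

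Developmental regulators made up most of the lists with more genes covered in the parental line only. Hox genes encode homeodomain proteins that specify position along the body axis and are among the best known Polycomb targets. Of 40 Hox genes, 0 were covered in R4000 only and 5 (12.5%, 95% CI 5.46 to 26.1%) in the parental line only around the TSS, against 1.87% of all protein-coding genes, and 18 were covered in both. In the 5 kb upstream, 2 were covered in R4000 only and 6 in the parental line only, beside 0.894% and 1.80% of all protein-coding genes. Of genes covered upstream in the parental line, 18 of 24 Hox genes and 412 of 815 protein-coding genes were also covered in R4000. The counts around the TSS moved with the length required. With at least 50 bp they were 3 in R4000 only and 4 in the parental line only. With at least 500 bp they were 0 and 5, and with 0 bp required in the other line 0 and 2. Long parental stretches were found in the Hoxb and Hoxc clusters. Hoxc8 had 650 bp in the parental line compared with 100 bp in R4000, and Hoxb2 had 600 and 96 bp. Hoxd10 had 250 and 0 bp. Upstream, neighbouring genes of the Hoxc cluster differed in opposite directions. Hoxc12 had 950 bp upstream in the parental line compared with 137 bp in R4000. Its neighbour Hoxc13 differed the other way, with 0 and 400 bp upstream. R4000 had fewer covered bases at 21 Hox genes and more at 7 around the TSS.

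Over whole Hox clusters, peaks covered less of each in R4000. The Hoxa cluster (chr6:52105366-52210874) had 30750 bp under parental peaks and 22150 bp under R4000 peaks, of which 17250 bp were in both. The Hoxc cluster (chr15:102751534-102867274) had 16250 and 10500 bp, with 5350 bp in both. The Hoxb cluster (chr11:96055630-96229570) had 5100 and 4150 bp with 750 bp in both, and the Hoxd cluster (chr2:74506367-74603200) had 900 and 200 bp with 0 bp in both. The ratio of R4000 to parental length was 0.720 for Hoxa, 0.814 for Hoxb, 0.646 for Hoxc and 0.222 for Hoxd, beside covered lengths over the genome of 1.07 and 1.63 Mb. The Hoxa cluster kept most of its R4000 bases in the parental pattern (77.9% of the R4000 length), and Hoxb shared 18.1%. The promoters of Hoxa3 and Hoxa6, which are close to each other, stayed covered in both lines with shorter lengths in R4000. Upstream, Hoxa3 had 3500 and 2038 bp and Hoxa6 had 3255 and 1750 bp.

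Other homeobox and lineage families had calls in both directions. Around the TSS, 1 of 12 LIM homeobox, 1 of 14 Nkx, 2 of 6 Gata and 1 of 10 Otx, Emx and Dlx genes were covered in the parental line only, and 0 of these lists in R4000 only, beside 1.87% and 2.12% of all protein-coding genes. Of 12 sine oculis and Irx homeobox genes, 2 were covered in R4000 only and 0 in the parental line only. These were Six2, with 50 bp in the parental line compared with 200 bp in R4000, and Six4, with 0 and 150 bp. Gata3 had 900 bp in the parental line compared with 0 bp in R4000, and R100 and R500 had 1050 and 1300 bp. R1000 had 150 bp there, the minimum for a call. The same peak lies over the start of 9230102O04Rik, so the value cannot be given to 1 of these genes. Gata4, a factor of heart and endoderm, had 250 and 122 bp. In the Pax family, 2 of 9 genes were covered in the parental line only and 0 in R4000 only, beside the same 1.87% and 2.12% of all protein-coding genes. Pax3, a neural crest and muscle factor, had 400 and 100 bp, and Pax6, an eye and brain factor, had 400 and 0 bp. Other members differed by window. Nkx1-2 had 550 and 0 bp upstream, although its promoter was covered in both lines around the TSS (1231 and 831 bp). Lhx2, Lhx6 and Lhx9, of the LIM homeobox family, were covered upstream in the parental line only. Around the TSS, Lhx6 alone kept that call, since Lhx2 (1350 and 1000 bp) and Lhx9 (700 and 650 bp) were covered in both lines. Emx2 went both ways, with 300 bp in the parental line compared with 100 bp in R4000 around the TSS but 100 and 300 bp upstream.

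Proneural bHLH genes encode factors that start neuronal and glial differentiation. Of 19, 4 (21.1%, 95% CI 8.51 to 43.3%) were covered in the parental line only around the TSS and 1 in R4000 only. Over all protein-coding genes these shares were 1.87% and 2.12%. Coverage was frequent in this family too. Of 9 members covered in the parental line, 5 were also covered in R4000, and of 1176 such protein-coding genes, 758 were. Neurog1 had 450 bp in the parental line compared with 0 bp in R4000. Ascl2 had 250 and 0 bp, Olig3 had 300 and 50 bp and Atoh7 had 200 and 100 bp. Olig2, a gene of oligodendrocytes and motor neurons, was the member with opposite calls in the windows. It had 106 and 200 bp around the TSS, and 150 and 0 bp upstream. Upstream, Atoh8 had 400 and 0 bp and Neurog3 had 363 and 50 bp. The counts of this family rest on few genes, and with at least 500 bp required they were 1 and 1 around the TSS.

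Signalling families were divided. In the Wnt family of secreted ligands, receptors and antagonists, 5 of 40 genes had upstream coverage in the parental line only and 1 in R4000 only, beside 1.80% and 0.894% of all protein-coding genes. Around the TSS the counts were closer, with 2 in the parental line only and 1 in R4000 only. The parental-only members upstream were ligand and receptor genes alike. Wnt6 had 600 and 100 bp, Wnt3 had 400 and 100 bp, and the receptor gene Fzd4 had 650 and 100 bp. Wnt11 had 0 bp in the parental line compared with 150 bp in R4000. This majority did not hold in a stricter comparison. With 0 bp required in the other line, the count for the Wnt family turned to 1 gene more in R4000. Of 22 Notch pathway genes, 3 (13.6%, 95% CI 4.75 to 33.3%) were covered in R4000 only and 1 (4.55%) in the parental line only in each window. Over all protein-coding genes the R4000-only share was 2.12% around the TSS and 0.894% upstream, and the parental-only share 1.87% and 1.80%. Notch genes were often covered in both lines. Of 10 covered in R4000 around the TSS, 7 were also covered in the parental line, and of 1232 such protein-coding genes, 758 were. The receptor gene Notch2 had 0 bp in the parental line compared with 400 bp in R4000 around the TSS, with 50, 50 and 150 bp in R100, R500 and R1000, so R4000 was the highest of the 5 lists. Ligand and target genes were called as well. Hes5, a Notch target, had 100 and 300 bp, and the ligand gene Jag2 had 50 and 200 bp. The ligand gene Dll4 had 100 and 300 bp upstream. Hey2, another target, differed the other way with 950 and 100 bp upstream. With at least 500 bp required, 2 more Notch genes were covered in the parental line than in R4000 only, so the direction of this family depended on the length required.

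Forkhead genes, which encode winged-helix transcription factors, were called in both directions. Foxf1a had 0 bp in the parental line compared with 500 bp in R4000 around the TSS, with 1165, 950 and 0 bp in R100, R500 and R1000. Foxb2 had 0 and 200 bp. Members of the family with more parental coverage included the gene for the master factor of motile cilia, Foxj1. Foxe1 had 450 and 131 bp, Foxj1 had 300 and 100 bp and Foxe3 had 150 and 0 bp. With 0 bp required in the other line, 1 more forkhead gene was covered in R4000 only than in the parental line only, the reverse of the count at 150 bp. Sox21 had 50 and 600 bp, while Sox12 had 200 and 100 bp and Sox5 150 and 100 bp.

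**Figure D3:**
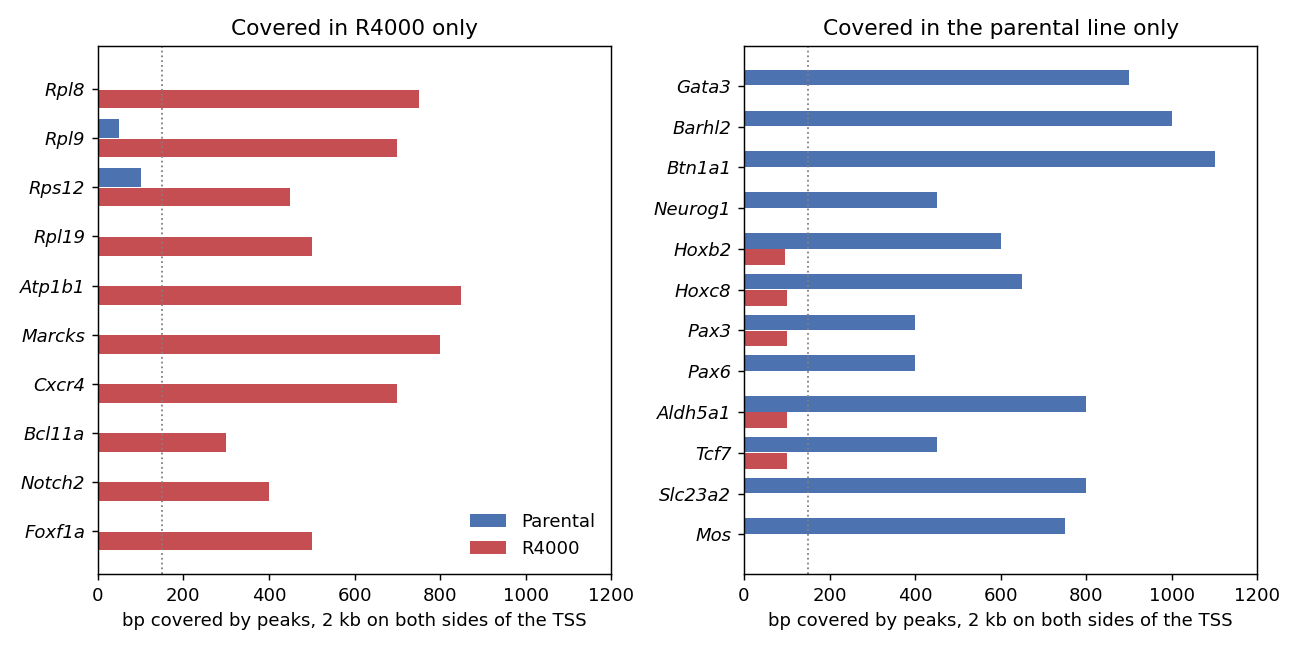
The bars give the bp covered by peaks within 2 kb of the TSS (x axis) in the parental line (blue) and R4000 (red) for genes named in the text, with 1 list per line and no error, and the dotted line marks the minimum of 150 bp. The genes on the left reach 300 bp (Bcl11a) to 850 bp (Atp1b1) in R4000 with at most 100 bp in the parental line, and those on the right reach 400 to 1100 bp in the parental line with at most 100 bp in R4000.

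The genes with most R4000 coverage and 0 bp in the parental line were led, in the 5 kb upstream, by gene models in a tandem repeat. The region chr9:3000922-3038316 holds 12 protein-coding models, of which 11 were covered in R4000 only. Its sequence resembled itself best at a shift of 234 bp, where 71.2% of bases were equal, which is the unit length of mouse major satellite DNA. R4000 had 18 peaks and 5650 bp there, and the parental line had 0 peaks. R100, R500 and R1000 had 4450, 3100 and 4650 bp. All 3 other resistant lines were thus covered there. How reads that match several units of the repeat were placed was not given in the sources used here. The peaks of each line there may depend on it, which was not tested. Gm11168 had 1450 bp upstream in R4000 and Gm10715 had 1300 bp. Without the models of the repeat, which is a choice made after seeing the data, 297 genes were covered in R4000 only in the upstream window and 569 around the TSS.

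Outside the repeat, the genes with long R4000 stretches included Atp1b1, Marcks, Rassf5 and the model Gm9945. Atp1b1, which encodes the beta subunit of the sodium pump, had 0 bp in the parental line compared with 850 bp in R4000, with 650, 900 and 350 bp in R100, R500 and R1000. Marcks, which encodes an actin-binding substrate of protein kinase C, had 0 and 800 bp, and it shares this region with 5930403N24Rik on the other strand. Rassf5, of the Ras-association family, had 0 and 615 bp upstream, but both lines covered it around the TSS (966 and 1500 bp). The model Gm9945 had 0 and 750 bp.

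Among the widest R4000 peaks without a parental peak, 2 were 750 bp wide. One (chr15:76734601-76735350) lay in Rpl8 with 393 bp in exons, and the other (chr11:94333901-94334650) lay in an intron of Cacna1g, a calcium channel gene. The next (chr1:130488001-130488700) lay in an intron of Cxcr4, which encodes the receptor for the chemokine Cxcl12 and guides B-cell progenitors to bone marrow. Cxcr4 had 0 bp in the parental line compared with 700 bp in R4000 around the TSS, with 750, 700 and 450 bp in R100, R500 and R1000. Another 6 peaks were 600 bp wide, and the 2 listed here lay in an exon of Neurod2 (chr11:98188651-98189250) and in an intron of Tyro3 (chr2:119625851-119626450). At each of these regions R100, R500 and R1000 also had a peak, so the parental line was the one list without it.

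On the parental side, the largest values with 0 bp in R4000 were at Dusp4 upstream (1150 bp) and Btn1a1 around the TSS (1100 bp). Dusp4 encodes a phosphatase of MAP kinases, and its promoter was covered in both lines around the TSS (1401 and 800 bp). Btn1a1, of the butyrophilin family, had 850, 650 and 481 bp in R100, R500 and R1000. Barhl2 had 1000 bp in the parental line and 2569, 2019 and 750 bp in R100, R500 and R1000. Transport and metabolic genes were among the rest. Slc23a2, a vitamin C transporter gene, had 800 bp around the TSS and 850 bp upstream in the parental line and 0 bp in both windows in R4000. Irg1, which encodes the enzyme that makes itaconate in macrophages, had 550 bp around the TSS and 750 bp upstream. Mos, a kinase gene of the germ line, had 750 bp in the parental line around the TSS and 0 bp in R4000, and it was covered upstream in both lines (900 and 600 bp). Wdr63 and Arhgef40 had 1000 and 950 bp in the parental line. At Barhl2, Btn1a1 and Slc23a2, R4000 was the one resistant line with 0 bp.

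The widest parental peak without an R4000 peak was 1100 bp (chr6:127107001-127108100), in the transcript 9330179D12Rik and 5935 bp from the TSS of Ccnd2, the cyclin D2 gene. Next came an intergenic peak of 950 bp on chromosome 18 (chr18:36062851-36063800), 48678 bp from the nearest TSS. Peaks of 900 bp lay at Btn1a1 (chr13:23556451-23557350), at Gata3 (chr2:9810751-9811650) and 1564 bp from the TSS of Nckap1 (chr2:80423101-80424000). R4000 had 0 bp at all 5. R1000 had between 50 and 350 bp there.

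Genes covered in both lines also differed in length. Around the TSS, Nes, the nestin gene of neural progenitors, had 300 bp in the parental line compared with 1200 bp in R4000. Slc30a3, a zinc transporter gene, had 550 and 1438 bp. Abundantly expressed housekeeping genes were among those with more coverage in R4000. Ptma, the prothymosin alpha gene, had 550 and 1400 bp, and Hnrnpu, a nuclear scaffold and RNA-binding protein gene, had 300 and 1100 bp. In the other direction, Rabgap1l had 1600 and 250 bp, Dbx1, a spinal cord homeobox gene, had 2150 and 900 bp, and Pcp4l1 had 1550 and 350 bp. Foxc1 had 2536 and 1286 bp upstream. Lbx1, a homeobox gene of muscle precursors, had 850 and 1600 bp upstream, so shared developmental genes were found in both directions.

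The lines are labelled as B cells, and genes that mark B cells are usually active in such cells and free of H3K27me3. Whether each marker was active in these lines was not analysed here. Of 10 B-cell markers, 0 had any covered base in the parental line in either window. In R4000, Ptprc, which encodes the pan-leukocyte protein CD45, had 150 bp around the TSS, the minimum for a call, and it had 0 bp in R100, R500 and R1000. Markers of other cell types were mostly uncovered in both lines. None of the 6 T-cell, 3 erythroid or 3 endothelial markers had a covered base in the 2 lines. Of 5 myeloid markers, Cd14, a lipopolysaccharide receptor gene, had 1600 bp around the TSS in the parental line compared with 1000 bp in R4000, and Lyz2, the lysozyme gene, had 50 and 0 bp. Of 4 fibroblast markers, Pdgfra had 50 and 35 bp around the TSS and 50 and 150 bp upstream. Absence of a peak does not measure expression, so marker genes without H3K27me3 do not by themselves identify a cell type.

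Among 22 B-cell transcription factor genes, 2 (9.09%) were covered in R4000 only in each window. The same share of all protein-coding genes was 2.12% around the TSS and 0.894% upstream. In the parental line only, 0 of the 22 were covered around the TSS and 1 upstream. With at least 500 bp required, the direction around the TSS was reversed, so these counts rest on few genes. Bcl11a, a factor of early B-cell development, had 0 bp in the parental line compared with 300 bp in R4000 around the TSS. Tcf12, which encodes the E protein HEB, had 50 and 200 bp. Bcl6, the germinal-centre repressor, differed the other way with 250 and 0 bp upstream. Genes of T-cell fate had calls in the parental line. Of 20 factors of other blood lineages, Gata3 and Tcf7, both of T cells, were covered in the parental line only, Tcf7 with 450 and 100 bp, and Lyl1 in R4000 only with 0 and 150 bp. Around the TSS, 1.87% of all protein-coding genes were covered in the parental line only. The oncogene itself was covered in both lines. Myc had 1100 bp in the parental line compared with 1300 bp in R4000 around the TSS of the endogenous gene, and 0 and 200 bp upstream. The files do not separate the Eμ-Myc transgene from the endogenous gene. Ier3 and Ier5, immediate early genes, had 250 bp in R4000 and 0 bp in the parental line, Ier3 upstream and Ier5 around the TSS.

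Genes tied to drug response and growth control were also examined. Of 95 detoxification and efflux genes, which encode enzymes and pumps that can inactivate or export drugs, 5 (5.26%, 95% CI 2.27 to 11.7%) were covered in the parental line only around the TSS and 0 in R4000 only, beside 1.87% and 2.12% of all protein-coding genes. Aldh5a1, which encodes an aldehyde dehydrogenase of GABA breakdown, had 800 bp in the parental line compared with 100 bp in R4000, with 850, 1900 and 650 bp in R100, R500 and R1000. Membrane pumps and conjugating enzymes made up the rest of the calls. Abcg1, a cholesterol exporter gene, had 300 and 50 bp, and Abcc3, a conjugate exporter gene, had 200 and 0 bp. The glutathione transferase genes Gsto1 and Gstt1 had 200 and 150 bp in the parental line and 0 and 50 bp in R4000. DNA repair and p53 pathways followed. Of 38 genes for repair of crosslinks and double-strand breaks, Rad52 alone was called, with 0 and 150 bp around the TSS. Of 20 genes of the p53 response, 1 (5.00%) was covered in R4000 only and 2 (10%) in the parental line only around the TSS. Over all protein-coding genes these shares were 2.12% and 1.87%. In lists of equal number the direction turned, with 1 more p53-response gene covered in R4000 only. Btg2 was covered in R4000 only (50 and 150 bp), and the death receptor genes Fas (200 and 0 bp) and Tnfrsf10b (150 and 0 bp) in the parental line only. The 7 Cdk inhibitor genes had no call. Cdk6 had 250 and 50 bp upstream, and the S-phase factor gene E2f2 had 0 and 150 bp around the TSS.

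Of the chromatin genes, Rnf2, which encodes the catalytic RING protein of Polycomb repressive complex 1, had 0 bp in the parental line compared with 200 bp in R4000. Dnmt3b, a de novo DNA methyltransferase gene, had 0 and 300 bp, and Dnmt3a had 0 and 50 bp, under the minimum. The PRC2 genes Ezh2, Suz12 and Mtf2 had 0 bp in both lines, as did Uty, an H3K27 demethylase gene, Tcf3, which encodes E2a, and Spi1, which the annotation lists as Sfpi1. Cdkn2a had 0 bp in all 5 lists, but a deleted locus gives no peak and neither does an unmarked one, so this value does not test the genotype. Id2, an inhibitor of E proteins, was covered in both lines, with 1407 and 2007 bp upstream and 407 and 307 bp around the TSS.

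Large families of sensory receptors, which are silent in blood cells, had almost no calls. Of 1087 olfactory receptor genes, 0 were covered in R4000 only and 1 in the parental line only around the TSS. None of 320 vomeronasal receptor genes was covered in either line. Families of transporters, channels and matrix proteins, some of which are Polycomb targets in other tissues, were counted as well. Of 355 solute carrier genes, 7 (1.97%) were covered in R4000 only and 8 (2.25%) in the parental line only, close to all protein-coding genes. Of 94 potassium channel genes, 1 (1.06%) was covered in R4000 only and 5 (5.32%) in the parental line only, and of 43 collagen genes, 0 and 3 (6.98%). The shares of all protein-coding genes were 2.12% and 1.87%. Both directions turned with at least 500 bp required and with peaks at least 500 bp wide. In each setting, 2 more potassium channel genes and 1 more collagen gene were then covered in R4000 only. Clustered histone genes had no call in 1 line only around the TSS. Upstream, 3 of 67 (4.48%) were covered in the parental line only, beside 1.80% of all protein-coding genes.

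Promoters covered in 1 line only differed in sequence composition. Within 500 bp on both sides of the TSS, the median ratio of observed to expected CpG was 0.799 in the 474 genes covered in R4000 only and 0.686 in the 418 covered in the parental line only. It was 0.748 in genes covered in both lines and 0.549 in all protein-coding genes. The share of promoters with a ratio above 0.6 was 85.7% for R4000 only and 64.6% for the parental line only, against 45.6% of all. In the upstream window the medians were 0.775 and 0.711. GC content differed less, with medians of 61.4% and 60.4% around the TSS. The quartiles of both sets overlapped, from 0.692 to 0.882 for R4000 only and from 0.537 to 0.815 for the parental line only.

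**Figure D4:**
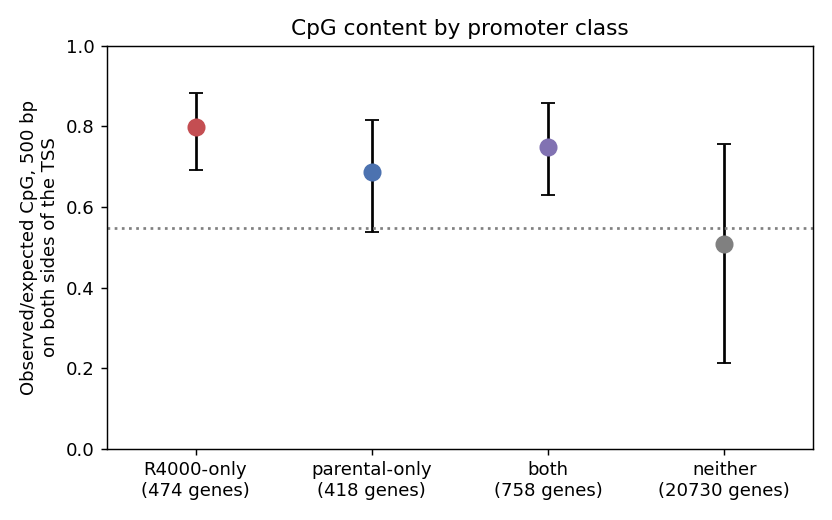
Points give the median ratio of observed to expected CpG within 500 bp on both sides of the TSS (y axis) for protein-coding genes covered in R4000 only, in the parental line only, in both or in neither, bars span the lower to the upper quartile over genes, and the dotted line is the median of all genes (0.549). R4000-only promoters have the highest median (0.799).

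E2a, the E protein the study connects with the resistant lines, binds E-boxes. The letters CAGCTG, and CAGGTG on either strand, were searched in the same windows of 500 bp on both sides of the TSS, and no stretch of letters can match both. CAGCTG was present in 35% of R4000-only promoters and 41.4% of parental-only promoters, beside 41.8% of all protein-coding promoters. CAGGTG was present in 53.4%, 56.2% and 55.7%. In the upstream calls, CAGGTG was present in 54.5% and 60.3%. A match is a run of letters and not a bound site.

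Most promoters covered in only 1 of the lines were covered in another resistant line. Of the 474 R4000-only genes around the TSS, R100 covered 81.9% (95% CI 78.1 to 85.1%), R500 76.8% (95% CI 72.8 to 80.4%) and R1000 43.0% (95% CI 38.7 to 47.5%). Of the 418 parental-only genes, R100 covered 91.1% (95% CI 88.0 to 93.5%), R500 90.2% (95% CI 87.0 to 92.7%) and R1000 58.1% (95% CI 53.4 to 62.8%). Of all protein-coding genes, the same lines covered 17.4%, 13.3% and 6.92%. Each share was lower for R4000-only than for parental-only genes, with intervals that did not overlap, and the difference was not tested. In the upstream window the order was not the same, since R500 covered 81.0% of R4000-only and 75.4% of parental-only genes, with overlapping 95% intervals.

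**Figure D5:**
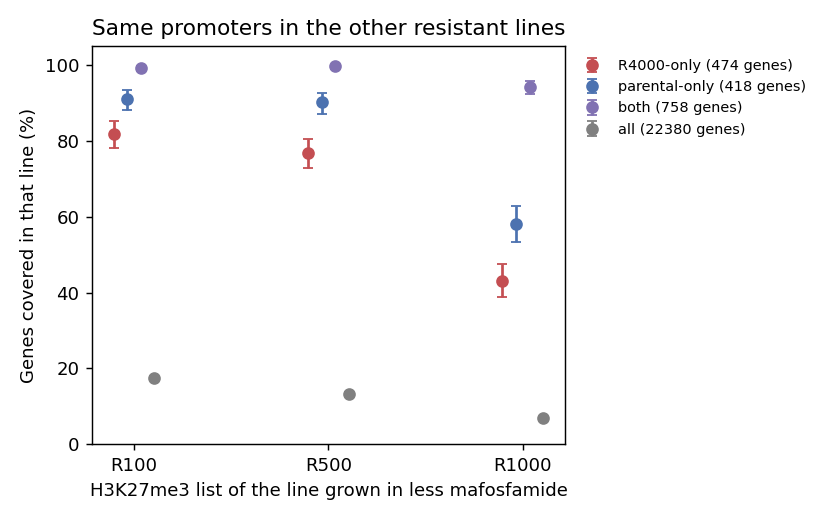
Points give the share (y axis, %) of genes covered in R4000 only, in the parental line only, in both or of all protein-coding genes that were also covered within 2 kb of the TSS in the lists of R100, R500 and R1000 (x axis), and bars are 95% Wilson intervals, which cover counting only. R1000 covers 43.0% of R4000-only and 58.1% of parental-only genes, and both are above the share of all genes (6.92%).

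Calls in the upstream and the TSS windows overlapped in part. In either window, 707 genes were covered in R4000 only and 811 in the parental line only, and 8 genes of each set had the opposite call in the other window. The upstream calls of R4000 rested on 375 distinct peaks and those of the parental line on 971, and the calls around the TSS on 694 and 906. Counting genes with a TSS within 1 kb of another once gave 282 and 503 genes upstream and 479 and 463 around the TSS. Neighbouring genes that share a peak are therefore part of each count and are not independent calls.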

How the data were processed

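H3K27me3 ChIP-seq peak lists of the parental line and R4000 were compared. The authors called peaks with Poisson statistics in tiled windows against input libraries and deposited 1 list per line, with chromosome, start and end in bp and no score or count. Bowtie and mm9 are named in the submitters' processing notes. The study describes biological replicates. Library depth is unknown, and the threshold of the deposited lists and whether a list pools replicates were not given in the sources used here. The study's own p-value limit was for bins of promoters, and the lists hold no p-value to which it could be applied.

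Peaks were intersected with GENCODE genes of NCBIM37 (mm9), whose chromosome lengths hold all peaks, in Python 3.11.15 with numpy 2.4.6, pandas 2.3.3 and pysam 0.24.0. Figures used matplotlib 3.10.9. Covered length was tested on simulated data, where 0 of 4000 windows differed from a count of single bases. The members and gene lists were chosen with earlier results of these data known. Named genes were those with the most bp in 1 line and 0 bp in the other (10 per window and line), the 5 largest differences each way in genes covered in both, up to 4 called members per list and direction, genes named in the study, the cell type markers and the 5 widest line-only peaks of each line. Exceptions, members of the list of ribosomal protein genes beyond that rule and the promoter values of Cxcr4 were added after they were seen. Alternatives were other windows, minimum lengths and peak sets. RRBS and expression were not analysed here. Results for a few genes are not reported here.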

Additional observations from a re-analysis of the deposited data

How the results depend on the processing

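Of 69 alternative values for the 8 counts and shares of the comparison, 38 stayed within 1.5 times the reported count or inside the interval of the reported share. Unknown library depth limits each comparison of peak number and width. These results have no test, and the cause of each change was not tested. In the 5 kb upstream, the R4000-only count of 308 was 566 within 1 kb on both sides, 795 with at least 50 bp, 101 with at least 500 bp, 196 with 0 bp in the other line, 108 with peaks at least 500 bp wide and 200 for protein-coding genes. The parental-only count of 524 was 1001, 203, 313 and 133 under the minimum lengths, 0 bp in the other line and wide peaks, and the count of 609 in both lines was 1091 and 192 under the minimum lengths and 98 with wide peaks. Around the TSS, the R4000-only count of 580 was 1466 with at least 50 bp, 180 with at least 500 bp and 160 with wide peaks. The parental-only count of 505 was 283 with at least 500 bp, 251 with 0 bp in the other line and 194 with wide peaks. The count of 1006 in both lines was 1594, 388 and 169 under the minimum lengths and wide peaks.

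R4000 peaks without a parental peak made up 47% of wide peaks, 70.3% in lists of equal number, 66.8% with peaks within 1000 bp joined, 74.8% where an overlap of at least 50% was required and 37.7% where no parental peak lay within 1 kb. The parental share was 64.7% of wide peaks, 71.7% in lists of equal number, 86.7% with the overlap of 50% and 55.6% with 1 kb. In lists of equal number the 2 shares thus differed by less than in the full lists.

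For the 39 gene lists, 468 values of the number covered in R4000 only minus that in the parental line only were computed, and 32 changed sign. With at least 50 bp, this difference around the TSS was 2 for forkhead and 14 for solute carrier genes. With at least 500 bp it was 1 for Otx, Emx and Dlx, Sox, forkhead and collagen genes, 2 for potassium channel, -2 for Notch and -1 for B-cell factor genes around the TSS, and upstream 1 for Pax and histone genes, -2 for forkhead and Notch genes and -1 for Polycomb genes. With 0 bp in the other line it was 1 for forkhead and 4 for solute carrier genes around the TSS and 1 for Wnt genes upstream. With wide peaks it was 1 for LIM homeobox, Nkx and collagen genes, 3 for Otx, Emx and Dlx, 2 for potassium channel, and -1 for sine oculis and Irx homeobox genes and for Polycomb genes around the TSS, and upstream -1 for forkhead, Polycomb and immediate early genes and 1 for T-box, potassium channel and Kruppel-like factor genes. In lists of equal number it was 1 for solute carrier and for p53-response genes. The ribosomal protein, splicing factor, Hox, proneural and detoxification lists were not among those that changed sign. A difference of 0 at 150 bp could not change sign, as for small-subunit ribosomal protein and splicing factor genes upstream. For small-subunit genes it was -3 upstream with at least 50 bp and 1 with at least 500 bp. Around the TSS, the Hox difference of -5 was -1 with at least 50 bp. The proneural difference of -3 was 0 with at least 500 bp. No paired analysis was possible because each line has 1 list and the comparison has no test.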
